A study of Mus musculus with 16 samples.

Results

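The inducible heat shock proteins and their co-chaperones were followed in BU.MPT cells, a mouse proximal tubular cell line, across 4 groups of 4 arrays. The set was given as 10 genes, and 7 of them had a probe set that carries their symbol: Hspa1a, Hspa1b, Hsph1, Dnajb1, Bag3, Hspb1 and Hspb8. The other 3, the constitutive HSP70 gene Hspa8, the co-chaperone gene Dnaja1 and the transcription factor gene Hsf1, are not analysed here. Each of the 7 had 1 probe set, out of 22206 tested on the array.

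The H/R+B12 and H/R groups spent 3 h at about 1% oxygen in medium without glucose or serum, followed by 1 h at normal oxygen with both restored, with or without 0.3 µM cyanocobalamin, a synthetic vitamin B12. The contr+B12 and control groups stayed at 21% oxygen, 10% serum and 4.5 g/L glucose, with or without the same dose. All 4 groups came from cells grown at 39 °C without interferon-γ, a temperature above that of most mammalian cultures, and the labels give no separate temperature for the hypoxia chamber. Oxygen, glucose and serum changed together in the H/R groups and cannot be told apart. The titles call all 8 vitamin samples B12, while some free-text descriptions read B13 to B15, and the titles were followed. Whether the 4 samples of a group came from separate cultures is not stated, so p-values reflect sample-to-sample spread that may be technical.

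The heat shock response protects cells against unfolded protein. Unfolded protein draws HSP70 and HSP90 away from the transcription factor HSF1, which then assembles into trimers, binds heat shock elements in the promoters of chaperone genes and raises their transcription. HSP40 proteins hand clients to HSP70 and start its ATP cycle, HSP110 and BAG proteins release the nucleotide and end it, and small heat shock proteins hold unfolded chains until HSP70 takes over. In the kidney, HSP70 and HSP27 (the product of Hspb1) are known to be induced in tubules by loss of oxygen or of ATP.

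A heat shock element is built of GAA units in alternating orientation. The RefSeq promoter windows of the 7 genes, 250 bases before to 50 after the start site on build GRCm38.p6, were searched on both strands for GAANNTTC and TTCNNGAA (2 units each, and each its own reverse complement) and for the 3 unit forms, in which NN and one further GAA or TTC unit follow, so that they contain both. Where a gene had more than 1 window, the first is the one whose start site is nearest the 5' end of the gene. A 2 unit match lay in the first window of 6 of the 7 genes, while 15.1% of 32851 mouse windows of the same length hold one. The 3 unit form lay in 1 of the 7, Hsph1, and is found in 0.603% of all windows. The Bag3 match ends at the last base of its window, so a further unit after it could not have been found. No match was found in the first window of Dnajb1. The 6 windows are shown because they hold a match, marked by the capitals, so the choice went by the motif and not by the arrays. All 6 are shown whole, and in the first pair, Hspa1b and Hspa1a, 296 of the 300 bases are the same.
Hspa1b: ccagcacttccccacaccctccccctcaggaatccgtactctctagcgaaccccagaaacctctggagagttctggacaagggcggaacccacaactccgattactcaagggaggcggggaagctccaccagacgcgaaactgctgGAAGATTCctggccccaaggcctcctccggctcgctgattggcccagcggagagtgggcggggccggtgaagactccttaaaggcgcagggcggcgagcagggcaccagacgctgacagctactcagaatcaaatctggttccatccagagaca
Hspa1a: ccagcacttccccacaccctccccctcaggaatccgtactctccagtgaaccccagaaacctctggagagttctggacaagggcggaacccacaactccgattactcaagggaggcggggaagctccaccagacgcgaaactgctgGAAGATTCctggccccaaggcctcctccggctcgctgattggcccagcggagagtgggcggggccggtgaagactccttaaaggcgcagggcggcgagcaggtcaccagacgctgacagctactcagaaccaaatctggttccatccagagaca
Hspb1: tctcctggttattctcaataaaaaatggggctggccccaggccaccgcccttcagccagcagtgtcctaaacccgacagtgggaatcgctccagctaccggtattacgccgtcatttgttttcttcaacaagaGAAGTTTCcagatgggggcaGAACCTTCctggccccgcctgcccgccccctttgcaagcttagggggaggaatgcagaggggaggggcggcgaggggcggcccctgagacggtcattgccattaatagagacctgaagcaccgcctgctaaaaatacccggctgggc
Hspb8: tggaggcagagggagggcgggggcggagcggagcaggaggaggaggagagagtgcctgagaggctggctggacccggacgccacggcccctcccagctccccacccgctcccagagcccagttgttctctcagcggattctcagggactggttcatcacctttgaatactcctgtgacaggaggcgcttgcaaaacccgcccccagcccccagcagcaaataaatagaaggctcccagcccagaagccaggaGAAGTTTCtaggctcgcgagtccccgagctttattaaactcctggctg
Bag3: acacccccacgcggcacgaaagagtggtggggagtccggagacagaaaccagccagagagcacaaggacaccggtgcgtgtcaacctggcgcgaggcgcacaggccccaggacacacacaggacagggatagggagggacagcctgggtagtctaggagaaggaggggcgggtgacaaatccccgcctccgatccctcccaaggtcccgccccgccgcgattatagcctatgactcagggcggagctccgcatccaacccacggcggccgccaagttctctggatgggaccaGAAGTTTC
Hsph1: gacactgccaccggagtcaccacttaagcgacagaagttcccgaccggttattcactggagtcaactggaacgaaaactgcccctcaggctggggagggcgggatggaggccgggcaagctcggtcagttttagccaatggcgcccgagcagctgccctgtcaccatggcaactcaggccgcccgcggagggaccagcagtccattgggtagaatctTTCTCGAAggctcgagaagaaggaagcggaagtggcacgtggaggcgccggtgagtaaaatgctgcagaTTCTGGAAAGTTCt
The windows are chr17:34959189-34959488 (minus strand) for Hspa1b, chr17:34972107-34972406 (minus) for Hspa1a and chr5:135887669-135887968 (plus) for Hspb1. Those of the others are chr5:116422815-116423114 (minus) for Hspb8, chr7:128523333-128523632 (plus) for Bag3 and chr5:149636287-149636586 (minus) for Hsph1. The single match of Hspa1b and of Hspa1a began at -104 from the start site in both, and the 2 matches of Hspb1 began at -117 and -97. In Hspb8 and Bag3 the match lay after the start site, at 3 and 43. Hsph1 had a TTCNNGAA match at -33 and the 3 unit element at 37. Its start site, at 149636336, lies inside the annotated gene, whose 5' end is at 149636498. The bases before that end were therefore searched only in part. A match is a run of letters and not a measured binding site.

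**Figure D1:**
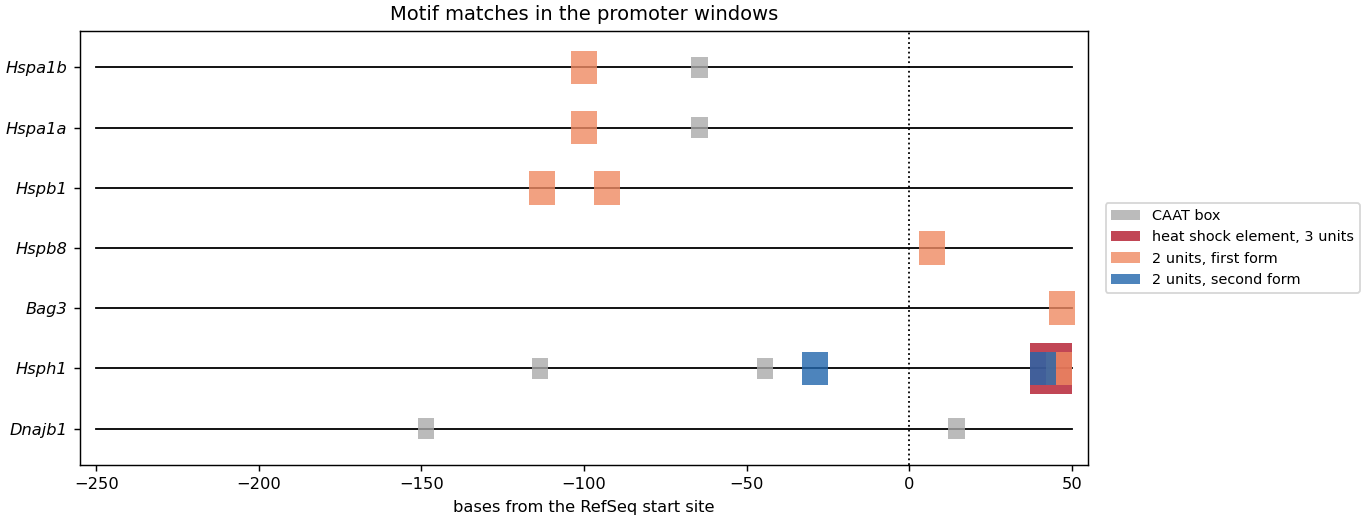
Motif matches in the first RefSeq promoter window of each of the 7 genes, drawn by distance in bases from the start site (dotted line). Red is the 3 unit heat shock element, orange and blue are the 2 unit forms GAANNTTC and TTCNNGAA, and grey is CCAAT in either orientation. Dnajb1 has no heat shock element match, and Hspa1b and Hspa1a have theirs at the same place.

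The 2 HSP70 copies also bear on how their values are read. Hspa1b and Hspa1a are neighbours on chromosome 17, and their promoter windows share 98.7% of bases, with an unbroken identical run of 201 bases. The windows of the other pairs among the 7 shared 22.3% to 28.3%. The proteins of the 2 copies are known to be nearly identical, so RNA of one copy may also be read by the probes of the other and their separate values are uncertain.

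Values are the authors' log2 signals after RMA, a background correction and normalization across arrays, where a difference of 1 is a doubling, and signals are not compared between genes. The 16 arrays had medians of 5.21 to 5.37 over the tested probe sets. Array medians averaged 5.25 on the 8 H/R arrays and 5.33 on the other 8, lower by 0.08 (difference -0.079, exact two-sided permutation p = 0.000311). All 112 member values lay above the negative control median of their own array, by at least 0.71. The number of arrays limits the precision of every value.

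The label of the cells was checked against markers. The kidney epithelial markers Pax8, Pax2, Krt18, Krt8 and Cdh1 lay above the negative control medians in each group, and Epcam did not. Cdh1 was only narrowly above. It averaged 6.17 over the 16 arrays, within the range of the negative control medians (5.72 to 6.23), while Krt8 averaged 10.61 and Pax8 15.97. Of 10 measured proximal tubule markers only the water channel Aqp1 did so, and Lrp2, Cubn, Slc34a1, Slc5a2, Slc5a12, Slc22a6, Slc27a2, Hnf4a and Anpep did not. The summed level of the list was 13.23 to 13.62 on H/R arrays, against 13.87 to 14.49 on control arrays (log2), and it is in effect the level of Aqp1, which averaged 13.42 in H/R and 14.21 in control (limma adjusted p = 0.0019). The median change over the 10 was 0.03, and 6 of the 10 means were higher in H/R, none of them past the threshold. Of the other markers Krt18 was higher after H/R by 0.82, and Pax2 (-0.66) and Scnn1a (-1.15) were lower (adjusted p = 0.0166, 0.00267 and 0.00946). In H/R+B12 against contr+B12, Krt18 (1.43), Pax2 (-0.81), Aqp1 (-0.87) and Ptprc (0.93) passed. The part of these markers in the results below was not tested. Among distal nephron markers Scnn1a alone of 6 was above the negative controls. Among leukocyte markers 1 of 4 (Csf1r) was above them while Ptprc was at 3.79 averaged over 16 arrays, and among endothelial markers 0 of 5 were. Of 5 measured fibroblast markers Col1a1 alone was above them, in 3 of the 4 groups. In RNA from a whole culture, fewer cells of a type and less RNA per cell cannot be told apart.

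Every measured gene of the set was higher after H/R. By limma with Benjamini-Hochberg adjustment over 22206 probe sets, 7 of 7 passed an adjusted p of 0.05 with higher signal in H/R than in control, where 8.11% of all probe sets did (17.6% in either direction). Their median log2 change was 2.16, against -0.02 over all probe sets, and the changes ran from 1.30 to 4.35. In each of the 7 genes all 4 H/R arrays lay above all 4 control arrays, as they did in 9.88% of probe sets.

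Hspa1b, an inducible HSP70 that refolds damaged proteins, had log2 signals of 12.04, 12.65, 12.09 and 12.76 on the H/R arrays, against 7.41, 8.28, 8.07 and 8.38 on the control arrays. The nearest arrays of the groups were 3.66 apart. The log2 change was 4.35 ± 0.24 (SE, n = 4 against 4, limma adjusted p = 8.23e-09), which is 20.4-fold with a 95% interval of 14.4 to 28.9. It ranked first among all 22206 probe sets by size of increase. Its copy Hspa1a had 10.73, 11.73, 11.23 and 11.46 on H/R arrays, against 7.32, 7.64, 7.12 and 7.69 on control arrays. The groups lay 3.04 apart, and the change of 3.84 ± 0.26 (adjusted p = 8.38e-08) was 14.3-fold with an interval of 9.79 to 21.0. It ranked 4 of 22206. The change of Hspa1b exceeded that of Hspa1a by 0.51, which an exact two-sided permutation test over arrays did not separate (p = 0.0857, 0.171 adjusted over 6 neighbouring pairs).

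Hsph1, the HSP110 that resets HSP70 by exchanging its nucleotide and works with it to dissolve aggregates, stood at 15.19, 15.69, 15.36 and 15.53 on H/R arrays, against 14.37, 13.73, 14.18 and 14.17 on control arrays. The lowest H/R array was 0.82 above the highest control array. Hsph1 rose by 1.33 ± 0.16 (limma adjusted p = 2.19e-05), or 2.52-fold.

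Dnajb1, the HSP40 that is induced with HSP70 and delivers substrates to it, had 12.49, 12.66, 12.55 and 12.76 on H/R arrays, against 11.21, 11.31, 11.46 and 11.27 on control arrays. Both groups were tight, with SDs of 0.12 and 0.11. The increase of 1.30 ± 0.12 (limma adjusted p = 1.94e-06) was the smallest of the 7 and amounted to 2.47-fold.

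Bag3, which links HSP70 to small heat shock proteins and to selective autophagy, gave 10.30, 10.37, 10.41 and 10.31 on H/R arrays. These 4 arrays agreed to within 0.05 (SD), the lowest spread of any of the 7 genes in any group. The control arrays gave 9.56, 8.58, 8.99 and 8.61, with an SD of 0.46, and replicate 1 was the highest of them. Bag3 rose by 1.42 ± 0.20 (limma adjusted p = 9.50e-05), or 2.67-fold, and without control replicate 1 by 1.63 (adjusted p = 1.21e-05).

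The small heat shock proteins bind unfolded chains without using ATP. Hspb1, which encodes HSP27 and also guards actin filaments, had 13.82, 14.34, 14.28 and 14.49 on H/R arrays, against 11.92, 11.34, 12.07 and 11.76 on control arrays. The groups were 1.74 apart. The change of 2.46 ± 0.17 (limma adjusted p = 1.30e-07) was 5.50-fold and ranked 35 among all probe sets. Hspb8, the small heat shock protein that works in a complex with Bag3, had 10.09, 10.29, 10.63 and 9.97 on H/R arrays, against 7.91, 7.67, 8.51 and 8.24 on control arrays. It rose by 2.16 ± 0.22 (adjusted p = 5.39e-06), or 4.47-fold, and ranked 53.

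**Figure D2:**
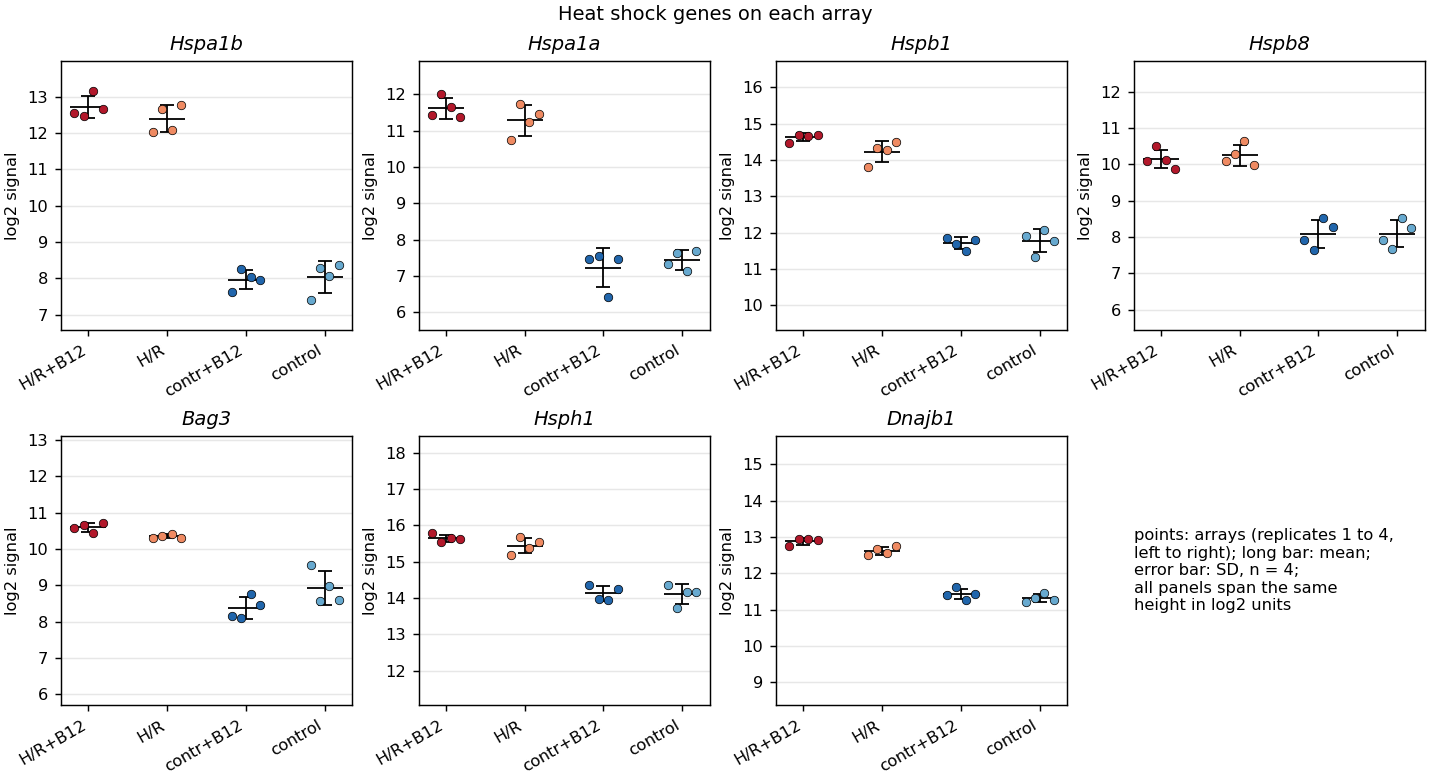
Log2 signal of the 7 heat shock genes on each of 16 arrays, with the groups H/R+B12, H/R, contr+B12 and control from left to right, the mean as a long bar and the SD (n = 4) as an error bar. In every panel the 8 H/R arrays with or without B12 lie above the 8 others, and the panels span the same height so that the jump of Hspa1b and Hspa1a can be set against the smaller ones.

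The increases differed in size. Taken per array, the change of Hspa1a exceeded that of Hspb1 by 1.38 (exact two-sided permutation p = 0.0286, the smallest that 4 against 4 arrays allow, and 0.0857 adjusted over 6 pairs). Hspb1 and Hspb8 differed by 0.30 (exact p = 0.20). Hspb8 exceeded Bag3 by 0.74 (exact p = 0.0286, adjusted 0.0857). Bag3 and Hsph1 differed by 0.08 (exact p = 0.686), and Hsph1 and Dnajb1 by 0.03 (exact p = 0.914). In H/R+B12 against contr+B12 the order was not the same. Hspb8 minus Bag3 was -0.16 there (exact p = 0.371), Hspb1 exceeded Hspb8 by 0.85 (exact p = 0.0286) and Bag3 exceeded Hsph1 by 0.71 (exact p = 0.0857). Hspa1a exceeded Hspb1 by 1.47 (exact p = 0.0286), Hspa1b exceeded Hspa1a by 0.35 (exact p = 0.429), and Hsph1 exceeded Dnajb1 by 0.07 (exact p = 0.686). None of the 6 differences passed 0.05 after adjustment in either comparison, and the pairs were neighbours in the order of the changes, so they were picked by their values. The smallest possible p, 0.0286, can pass adjustment over 6 pairs only if most of the pairs reach it. The adjusted values therefore say little about whether the sizes differ.

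H/R replicate 1 was the lowest H/R array in 6 of the 7 genes, the exception being Hspb8. Its array median, 5.29, was the highest of the 4. Without it the 7 changes after H/R ran from 1.35 for Dnajb1 to 4.47 for Hspa1b, and all 7 still passed the threshold.

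The same comparison with B12 in both arms gave 7 of 7 genes higher in H/R+B12 than in contr+B12, where 9.04% of all probe sets were called higher (18.7% in either direction). The median change was 2.22, against -0.04 over all probe sets, and all 4 H/R+B12 arrays lay above all 4 contr+B12 arrays in each of the 7 genes (10.3% of probe sets). Hspa1b stood at 12.54, 12.46, 13.14 and 12.66 on H/R+B12 arrays, against 7.61, 8.26, 8.03 and 7.95 on contr+B12 arrays, a log2 change of 4.74 ± 0.24 (limma adjusted p = 2.55e-09). It was again first of 22206. Hspa1a stood at 11.42, 11.64 and 11.39 on H/R+B12 replicates 1, 3 and 4 and higher on replicate 2, against 7.48, 7.55, 6.42 and 7.45 on contr+B12 arrays. Replicate 3 of contr+B12 lay well below its group. The change of 4.39 ± 0.26 (adjusted p = 1.61e-08) ranked 2.

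The co-chaperones followed the same direction with B12. Bag3 had 10.58, 10.65, 10.44 and 10.72 on H/R+B12 arrays, against 8.17, 8.09, 8.77 and 8.46 on contr+B12 arrays. It rose by 2.22 ± 0.20 (limma adjusted p = 1.01e-06), 4.67-fold. Dnajb1 had 12.74, 12.93, 12.93 and 12.92 on H/R+B12 arrays, against 11.41, 11.62, 11.27 and 11.43 on contr+B12 arrays, and rose by 1.45 ± 0.12 (adjusted p = 6.14e-07). The 3 higher H/R+B12 arrays of Dnajb1 were nearly equal. Hsph1 had 15.77, 15.54, 15.64 and 15.63 on H/R+B12 arrays, against 14.36, 13.97, 13.94 and 14.25 on contr+B12 arrays, and rose by 1.51 ± 0.16 (adjusted p = 6.80e-06).

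Of the small heat shock proteins, Hspb1 had 14.46, 14.70, 14.67 and 14.69 on H/R+B12 arrays, against 11.86, 11.68, 11.50 and 11.81 on contr+B12 arrays. It rose by 2.92 ± 0.17 (limma adjusted p = 1.74e-08), 7.55-fold. Hspb8 had 10.08, 10.49, 10.13 and 9.88 on H/R+B12 arrays, against 7.91, 7.64, 8.51 and 8.27 on contr+B12 arrays, and rose by 2.06 ± 0.22 (adjusted p = 8.67e-06). Neither gene's groups overlapped.

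**Figure D3:**
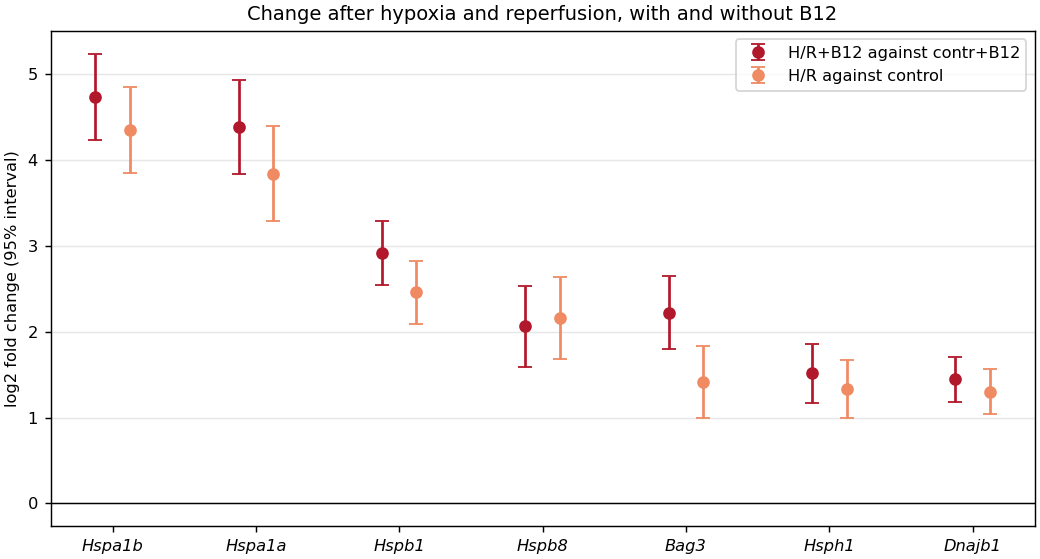
Log2 fold change of each of the 7 genes with its 95% interval from limma, for H/R+B12 against contr+B12 (red) and H/R against control (orange), genes ordered by the second. All intervals lie above 0, and the 2 intervals of each gene overlap, those of Bag3 only narrowly (1.80 to 2.65 with B12 and 0.99 to 1.84 without).

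Whether B12 altered these genes was asked in 3 ways, and 0 of 7 passed the adjusted threshold in any of them. By limma 0 of all 22206 probe sets (0%) passed in each of the 3 comparisons either, while 1010, 1280 and 1071 had an unadjusted p under 0.05 for H/R+B12 against H/R, contr+B12 against control, and the interaction. Between H/R+B12 and H/R, 6 of the 7 means were higher with B12, where 49.8% of all probe sets were. These were Hspb1 by 0.40 (95% interval 0.03 to 0.77), Hspa1a by 0.33 (-0.22 to 0.88), Hspa1b by 0.32 (-0.18 to 0.82), Dnajb1 by 0.26 (0.0042 to 0.52), Bag3 by 0.25 (-0.17 to 0.67) and Hsph1 by 0.20 (-0.14 to 0.54). Hspb8 was at -0.10 (-0.58 to 0.38). Hspb1 and Dnajb1 had an unadjusted limma p under 0.05, and all 7 genes had an adjusted p that rounds to 1.

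The low H/R replicate 1 enters this comparison as well. Without it the 7 differences between H/R+B12 and H/R ran from -0.15 for Hspb8 to 0.26 for Hspb1, and 6 remained positive. All 4 H/R+B12 arrays lay above all 4 H/R arrays in 1 of the 7 genes, Bag3, with a gap of 0.029, as they did in 1.38% of all probe sets (1.49% had all 4 below). In the other 6 genes the groups overlapped.

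In normal culture, contr+B12 against control, 2 of the 7 means were higher and 5 lower. The genes other than Bag3 lay between -0.22 for Hspa1a and 0.12 for Dnajb1, and their intervals all included 0. The contr+B12 and control arrays overlapped in all 7 genes, where 1.36% of probe sets had all contr+B12 arrays above and 1.51% all below. Bag3 was at -0.56 (95% interval -0.98 to -0.14, limma adjusted p = 0.82, unadjusted p under 0.05), with contr+B12 at 8.09 to 8.77 and control at 8.58 to 9.56. Without control replicate 1 the difference was -0.35 (adjusted p = 0.909).

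The interaction, the change after H/R with B12 minus that without, was positive in 6 of the 7 genes, where 50.8% of all probe sets were positive. It was largest for Bag3, at 0.81 ± 0.28 (SE, 95% interval 0.21 to 1.41, limma adjusted p = 0.972, unadjusted p under 0.05), and 0.60 without control replicate 1. Hspa1a was at 0.54 (-0.23 to 1.32), Hspb1 at 0.46 (-0.07 to 0.98), Hspa1b at 0.39 (-0.32 to 1.09), Hsph1 at 0.18 (-0.30 to 0.66), Dnajb1 at 0.14 (-0.22 to 0.51) and Hspb8 at -0.10 (-0.77 to 0.57). These intervals do not show that the response was equal with and without B12. The interaction shares its arrays with the comparisons above and is not separate evidence.

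**Figure D4:**
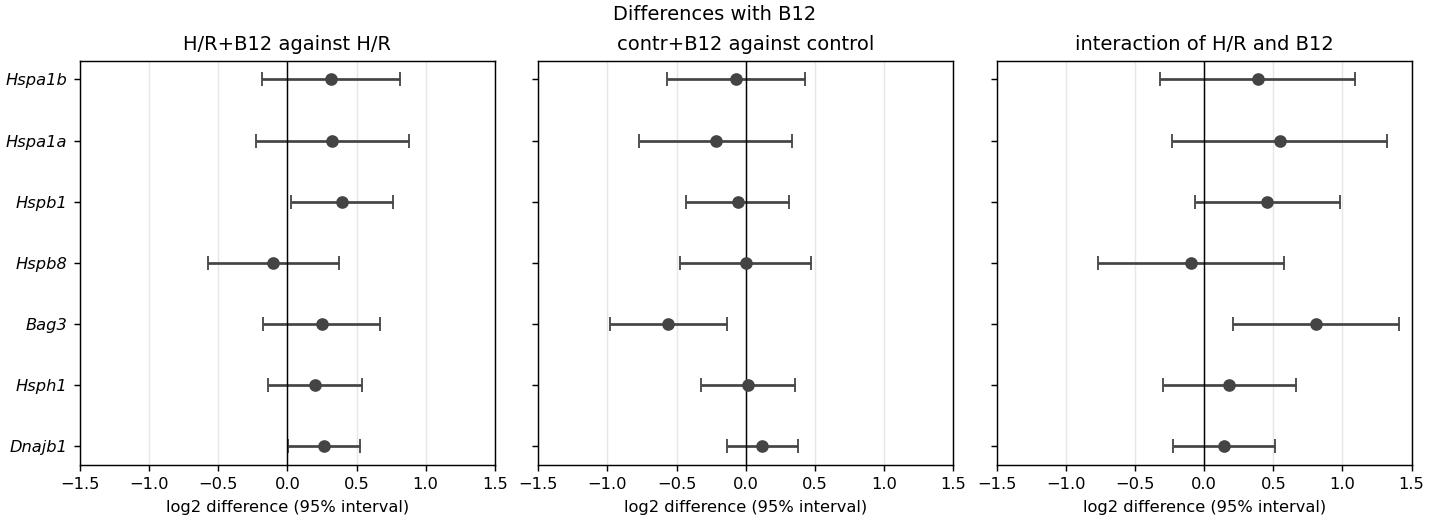
Log2 differences of the 7 genes with 95% intervals from limma, for H/R+B12 against H/R, contr+B12 against control, and the interaction (change after H/R with B12 minus the change without). The intervals that leave out 0 are those of Hspb1 and Dnajb1 for H/R+B12 against H/R and of Bag3 in the other comparisons, all with an adjusted p of at least 0.82.

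The rest of the chaperone network moved in both directions. Of 74 other genes listed for it, 68 were measured, and by limma 11 were higher (16.2%) and 12 lower (17.6%) after H/R, against 8.11% and 9.54% of all probe sets. Their median log2 change was 0.01, and the largest of them, Dnajc5 at 1.21 ± 0.15 (SE), was below each of the 7 genes above. The nearest of the 7, Dnajb1, was close to it at 1.30 ± 0.12, and the gap was not tested. With B12 in both arms 14 were higher and 10 lower (20.6% and 14.7%, against 9.04% and 9.61% of all probe sets). The interaction passed in 0 of the 68 by limma, with 3 at an unadjusted p under 0.05 (Hspbp1, Sdf2l1 and Dedd2), so the values of the arms with and without B12 are given side by side below and no difference between them was shown. Dedd2 here, and 4 CCT subunits and Hsf4 below, are named because of their values. Hspa1l, Hspa12a, Hspa12b, Dnaja4, Cryaa, Hspb3, Hspb7, Hsf4 and Dedd2 averaged 2.87 to 5.00 over the 16 arrays. The lowest negative control median of any array was 5.72. The list counts and medians include these genes, whose changes are uncertain. Each list count below is to be set against the shares of all probe sets given above. In lists this short, 1 call in a direction does not set a list apart from them.

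Among the HSP70 and HSP110 relatives 1 of 8 rose and 1 fell (12.5% each, against 8.11% and 9.54% of all probe sets, median -0.03). Hspa4l, an HSP110 relative of Hsph1, rose by 0.88 ± 0.13 (limma adjusted p = 0.000177), with 14.58 to 14.81 on H/R arrays and 13.60 to 14.06 on control arrays. Hspa2, an HSP70 best known from the testis, fell by 1.03 ± 0.20 on the log2 scale (adjusted p = 0.00122). Of 7 measured HSP40 genes 2 rose and 0 fell (median 0.29), Dnajc5 by 1.21 ± 0.15, a co-chaperone of secretory vesicles, and Dnajb4, a close relative of Dnajb1, by 0.88 ± 0.19 (adjusted p = 2.56e-05 and 0.00333). Against contr+B12, in H/R+B12 Hspa4l (0.98), Hspa2 (-0.88), Dnajc5 (1.10) and Dnajb4 (0.89) all passed, and 3 of the 7 genes of the HSP40 list were higher.

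Of 6 small heat shock proteins outside the set 0 rose and 1 fell by limma (0% and 16.7%, against 8.11% and 9.54% of all probe sets, median -0.04). Cryaa, Hspb3 and Hspb7 among them averaged 3.07, 2.87 and 3.00 over the 16 arrays, under the negative control median of every array. Their lack of change is therefore not informative. Cryab, αB-crystallin, which is itself a known heat shock gene, was at 15.12 ± 0.16 on H/R arrays and 15.18 ± 0.23 on control arrays (SD, n = 4), a difference of -0.06 ± 0.13 (limma adjusted p = 0.838) whose sign turned after median centring of the arrays (0.0097) and without H/R replicate 1 (0.013). Hspb6 averaged 7.58 ± 0.48 on H/R arrays and 8.58 ± 0.40 on control arrays (SD, n = 4, limma adjusted p = 0.0288), a call lost without control replicate 1 or 3 or H/R replicate 1 or 2 (adjusted p of 0.0772 to 0.101). Of these 6, 0 passed in H/R+B12 against contr+B12 by limma and 1 had an unadjusted p under 0.05, with Hspb6 at -0.69 (adjusted p = 0.137) and Cryab at 0.10 (0.689).

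Of 7 measured BAG genes and HSP70 exchange factors 3 rose and 2 fell (median 0.42). Bag5 rose by 0.74 ± 0.18 and Bag2 by 0.60 ± 0.14 (limma adjusted p = 0.0073 and 0.00624), both BAG proteins that act on HSP70. Hspbp1, an exchange factor of HSP70, fell by 1.67 ± 0.19 on the log2 scale (adjusted p = 1.21e-05). Its 4 H/R arrays (9.12 to 9.85) lay below all control arrays (10.92 to 11.38). With B12 in both arms 1 of the 7 was higher and 2 lower. Bag2 was higher by 0.83 (adjusted p = 0.000505) and Hspbp1 was at -0.84 (0.00425), while Bag5, at 0.27, did not pass (0.351).

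HSP90 and its co-chaperones had 1 of 10 higher and 2 lower (10% and 20%, against 8.11% and 9.54% of all probe sets, median -0.07). Hsp90aa1, the inducible form of HSP90, rose by 0.63 ± 0.14 (limma adjusted p = 0.00361), with 17.40 to 17.67 on H/R arrays and 16.69 to 17.07 on control arrays. Ahsa2 fell by 0.99 ± 0.16 and the immunophilin Fkbp5 by 0.85 ± 0.17 on the log2 scale (adjusted p = 0.000291 and 0.00157). With B12 in both arms Hsp90aa1 was higher by 0.58 and Ahsa2 was at -0.85 (adjusted p = 0.00656 and 0.00103), while Fkbp5, at -0.40, did not pass (0.116). The chaperonin CCT, which folds actin and tubulin, had 0 of 7 subunits called in either direction by limma after H/R without B12 (median 0.14), and 0 with an unadjusted p under 0.05. In H/R+B12 against contr+B12 also 0 of 7 were called (median 0.32). There 4 had an unadjusted limma p under 0.05 (Tcp1, Cct2, Cct4 and Cct7), all with higher means in H/R+B12. Of all 22206 probe sets, 6120 had such a p without B12 and 6466 with B12 in both arms. For the interaction 0 of the 7 subunits had one, so no difference between the arms was shown.

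Chaperones of other compartments were split. In mitochondria 2 of 7 rose and 1 fell (median 0.40). Hspa9, the mitochondrial HSP70, rose by 1.07 ± 0.15 (limma adjusted p = 0.000121). Hspe1, the lid of the mitochondrial chaperonin, was at 0.49 ± 0.13 (adjusted p = 0.0147) and Trap1, the mitochondrial HSP90, at -0.45 ± 0.12 (0.0168), and both calls were lost when only the H/R and control arrays were fitted (0.0551 and 0.0652) and without control replicate 4. The Hspe1 call was also lost without H/R replicate 4. The chaperonin itself, Hspd1, was at 0.41 ± 0.16 and did not pass (0.102). With B12 in both arms 4 of 7 were higher and 1 lower (median 0.69), and Hspd1 was among those higher, by 0.70 (adjusted p = 0.00555), as were Hspe1 by 0.78 and Hspa9 by 1.23, with Trap1 at -0.47 (0.000436, 3.08e-05 and 0.0128). In the endoplasmic reticulum 1 of 7 rose and 4 fell (median -0.35), with Sdf2l1 at -1.57 ± 0.19, Dnajc3 at -1.01 ± 0.17 and Hyou1 at -0.72 ± 0.14 (adjusted p = 2.43e-05, 0.000433 and 0.00136). Hspa5, the HSP70 of that compartment, was at -0.14 ± 0.11 (0.488). The counts with B12 in both arms were the same, 1 higher and 4 lower, with Sdf2l1 at -2.19, Dnajc3 at -0.97 and Hyou1 at -0.71, and Hspa5 at -0.30 did not pass (0.0828).

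The regulators listed with HSF1 had 0 of 6 higher and 1 lower (0% and 16.7%, against 8.11% and 9.54% of all probe sets, median -0.20). Hsbp1, a small protein that binds the HSF1 trimer, fell by 0.78 ± 0.17 on the log2 scale (limma adjusted p = 0.00357), with 13.20 to 13.82 on H/R arrays and 13.96 to 14.56 on control arrays. Hsf2, a related factor, was at -0.29 ± 0.23 (adjusted p = 0.466). Of 3 measured HSF1 targets that are not classical chaperones 1 rose, Zfand2a, an arsenite and heat inducible partner of the proteasome, by 0.94 ± 0.16 (adjusted p = 0.000529). For H/R+B12 against contr+B12 Hsbp1 was at -0.87 and Hsf2 at -0.28 (adjusted p = 0.00142 and 0.464), the factor Hsf4 was higher by 1.15 (0.0334), and 2 of the 3 other targets were, Zfand2a by 1.27 (3.56e-05). Hsf4 averaged 4.12 over the 16 arrays, under the lowest negative control median of any array (5.72), so its change is uncertain.

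**Figure D5:**
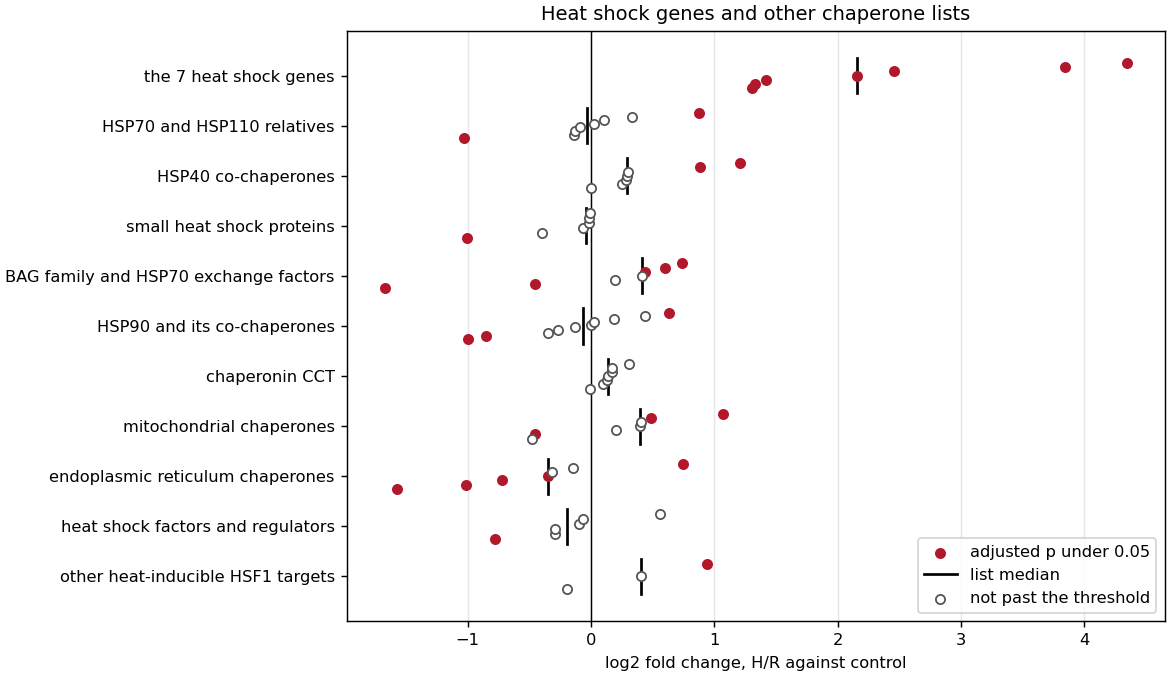
Log2 fold change of H/R against control for the 7 heat shock genes and for 10 lists of other chaperone genes, 1 point per gene, filled where the limma adjusted p is under 0.05 and with the list median as a black bar. The 7 heat shock genes lie at 1.30 to 4.35, and the other 68 genes at -1.67 to 1.21 on both sides of 0.

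The genes whose centred signal lay closest to that of Hspa1b over all 16 arrays were found by centring each gene on its own mean and taking the mean absolute difference. The values were not scaled. The distance therefore depends largely on how near a gene's change after H/R is to that of Hspa1b. The nearest outside the set was Atf3, a stress transcription factor, at 0.31, followed by the death receptor Fas at 0.34, Plcxd3 at 0.36, the endoplasmic reticulum oxidase Ero1a at 0.36 and the mitochondrial folate enzyme Mthfd2 at 0.56. Hspa1a was at 0.37. The signal of Plcxd3 without H/R, 4.83 in contr+B12 and 4.92 in control, was under the lowest negative control median of any array. Of the other members Hspb1 was at 0.93, Hspb8 at 1.22, Bag3 at 1.36, Hsph1 at 1.56 and Dnajb1 at 1.58, with 0.113% to 1.16% of probe sets nearer to Hspa1b than they were. That is also their order by size of change in H/R against control.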

How the data were processed

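RNA of 16 samples was measured on arrays, with an input of 700 pg in all 4 groups. What this input does to the fold sizes and to the spread was not tested. Per the submitters' processing notes the authors made the deposited log2 signals with RMA in Affymetrix Expression Console and compared them in Transcriptome Analysis Console, with no version stated. The deposited log2 values were used without further normalization. Of 28846 features, 6640 control features were left out and 22206 probe sets tested, of which 19572 carried 1 symbol and 2634 are unnamed here. Promoter sequences and loci are from RefSeq (GRCm38.p6).

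One limma model (version 3.58.1, R 4.3.3) of 4 group means covered the 16 arrays, with empirical Bayes variances. P-values are two-sided and adjusted by Benjamini and Hochberg within each of 5 comparisons, with a threshold of 0.05. Single values were tested by exact permutation over arrays. The code of the fit was tried on simulated data with independent noise on each array and far fewer changed probe sets. That does not show whether the samples here are independent. The members, lists and naming rule (all members, in each chaperone list the 3 smallest p-values among called genes, and Hsf2, Hsp90aa1, Cryab, Hspd1, Hspe1 and Hspa5 in any case) were chosen with earlier results of these data known. Alternatives were a replicate block, fits of 2 groups, a variance trend, array weights, leaving out the dimmest 25%, quantile normalization, centring and leaving out each array. Figures were drawn with matplotlib 3.10.9.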

Additional observations from a re-analysis of the deposited data

Results flagged for a closer look

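Among the 28 combinations of 7 genes and 4 groups, 3 had an array set apart from the other 3 of its group by more than Dixon's 95% limit, and chance sets apart about 1 in 20. Hspa1a on contr+B12 replicate 3 was at 6.42, with the rest of the group at 7.45 to 7.55. Hspb1 on H/R+B12 replicate 1 was at 14.46, with the others at 14.67 to 14.70. Dnajb1 on the same array was at 12.74, with the others at 12.92 to 12.93.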

How the results depend on the processing

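All 7 genes stayed past the threshold and higher after H/R, without and with B12, under each of 23 alternatives run, and 0 of 7 passed in either B12 comparison under 23 or in the interaction under 22. The same replicate numbers run through the 4 groups, but same-numbered arrays of different groups did not deviate together (median r = 0.0051 over 24 pairs, -0.07 to 0.08), and the replicate block left the counts of called genes at 7 and 7 after H/R and 0 for B12. Differences near 0 changed sign. Leaving out 1 array moved contr+B12 against control over -0.33 to 0.049 in Hspa1a, -0.28 to 0.047 in Hspa1b, -0.20 to 0.040 in Hspb1, -0.15 to 0.15 in Hspb8 and -0.11 to 0.11 in Hsph1. It moved Hspb8 over -0.22 to 0.029 for H/R+B12 against H/R and over -0.25 to 0.045 for the interaction, and quantile normalization put Hspb8 at 0.030 for contr+B12 against control. Cryab after H/R was at 0.0097 in centred arrays and ran from -0.17 to 0.013 with 1 array left out. Over all probe sets 1 passed for contr+B12 against control without control replicate 2, and 1 for H/R+B12 against H/R without H/R replicate 1, where 0 passed with all arrays. No other probe sets carried the members' symbols, so that alternative gave no value. The alternatives for the other chaperone genes were added after seeing the data, and gave 9 to 12 higher and 9 to 13 lower after H/R. For H/R+B12 against contr+B12 they gave 12 to 19 higher and 9 to 13 lower.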

Other observations

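In Hspb8 the arrays of contr+B12 and control matched by replicate number. The 4 values were 7.91, 7.64, 8.51 and 8.27 in contr+B12, against 7.91, 7.67, 8.51 and 8.24 in control, and no same-numbered pair differed by more than 0.027. Among 6747 probe sets whose control arrays spread at least as widely (SD 0.37), Hspb8 was the only one with differences this small. The match was noticed in the data and was not tested, and same-numbered arrays did not deviate together over all probe sets.

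The median SD of the 7 genes within a group was 0.12 in H/R+B12, 0.29 in H/R, 0.27 in contr+B12 and 0.31 in control. The order did not hold for each gene, since Bag3 was tightest in H/R (0.05), Hspa1a in control (0.27) and Hspa1b in contr+B12 (0.27). These differences in spread were not tested.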
